A study of Mus musculus with 2 samples.

Results

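The genes described here are 7 oxidizing enzymes of the mouse colon, Cyp2c55, Cyp2c65, Cyp2c66, Cyp2c68, Hao2, Hsd3b3 and Selenbp1. They were taken by exact symbol from the 32285 genes of the count tables, and each of the 7 had at least 1 read molecule. Some were selected on their high UMI counts in groups of enterocytes of these same libraries, so their levels across enterocyte clusters are a description and carry no test.

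Colon nuclei came from WT littermates and from HIF-1α KO mice (Ncr1cre+ Hif-1α fl+/fl+), in which Cre under the promoter of Ncr1 (the gene of the receptor NKp46) deletes the transcription factor HIF-1α in NKp46+ lymphocytes. Epithelial cells are not a target of this deletion by design. All mice were 8 to 12 wk old at the start and went through 4 cycles of 3 d of 2% dextran sodium sulfate (DSS) in the drinking water and 4 d of recovery, and there was no group without DSS. Frozen colon of 3 animals per genotype was pooled into 1 library, so genotype, pool and library cannot be told apart and no p-value is given. Ncr1 had 1 read molecule in the WT and 0 in the KO library, so the deletion itself could not be checked in these nuclei.

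Enterocytes of the colon arise from stem cells at the crypt base and change their enzymes as they move up to the surface, where they meet bacterial and dietary compounds. Cytochromes P450 of the Cyp2c family sit in the endoplasmic reticulum and oxidize fatty acids, steroids and foreign compounds with electrons from the reductase Por. Hsd3b enzymes oxidize the hydroxyl group of steroids such as pregnenolone, Hao2 is a peroxisomal oxidase of long-chain hydroxy acids, and Selenbp1 oxidizes methanethiol, a sulfur gas made by gut bacteria.

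The filter on nuclei (400 to 5000 genes, at most 10% mitochondrial molecules) left 4884 WT and 4702 KO nuclei. Levels are given as CPM, the unique molecular identifiers (UMIs, 1 per captured RNA molecule) of a gene per 1000000 UMIs of the same nuclei, with exact 95% Poisson intervals in parentheses, and intervals of every kind cover counting error only. The libraries differed in depth, with a median of 2058.5 UMIs per nucleus in WT and 4197 in KO, and 3 barcodes occurred in both. Of 24 clusters made without the 7 genes, 13 were epithelial-like and held 3331 WT and 3960 KO nuclei. Non-epithelial nuclei, 890 in WT and 649 in KO, were taken to lack these enzymes, and their UMIs serve as the background. What this background holds, such as free RNA, doublets or misassigned nuclei, was not tested.

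Cluster 4, led by Lama3, Clca4a, Car4 and Aqp8, passed 11 of 11 markers of absorptive colonocytes and held 275 WT and 472 KO nuclei. Cluster 7, led by Slc9a3, Slc37a2, Tgm3 and Slc26a3, took the same name from 4 markers and held 238 and 354. Cluster 1 was gasdermin C enterocyte-like, with Gsdmc2, Gsdmc3 and Gsdmc4 in front, and held 374 and 545 nuclei. Cluster 0, led by Htr4 and Cftr, passed only 2 markers of crypt enterocytes and stays unnamed. It held 436 and 576 nuclei.

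The 4 Cyp2c members lie in a run of 14 Cyp2c genes on chromosome 19 (GRCm38, GENCODE M21). Cyp2c55 (ENSMUSG00000025002, chr19:39007019-39042693, plus strand), Cyp2c65 (ENSMUSG00000067231, chr19:39061015-39093944, plus strand) and Cyp2c66 (ENSMUSG00000067229, chr19:39113898-39187072, plus strand) are next to each other at one end of the run. Cyp2c68 (ENSMUSG00000074882, chr19:39688834-39741054, minus strand) stands apart from them, between Cyp2c67 and Cyp2c40. The 150 bases in front of their RefSeq start sites (GRCm38.p6) are shown because these neighbours differ in where they were detected, and because their upstream sequence differs as well. Capitals mark CAAAGTCCA, a sequence bound by the enterocyte factors Hnf4a and Hnf4g, and all runs read 5′ to 3′ on the strand of the gene.

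Cyp2c55, chr19:39006869-39007018, plus strand: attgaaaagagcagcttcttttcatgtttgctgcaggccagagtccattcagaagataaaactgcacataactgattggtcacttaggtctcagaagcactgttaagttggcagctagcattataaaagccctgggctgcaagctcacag
Cyp2c65, chr19:39060856-39061005, plus strand: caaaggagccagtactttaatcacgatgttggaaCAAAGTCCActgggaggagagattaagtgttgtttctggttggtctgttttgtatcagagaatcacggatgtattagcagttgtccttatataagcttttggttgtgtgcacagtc
Cyp2c66, chr19:39113748-39113897, plus strand: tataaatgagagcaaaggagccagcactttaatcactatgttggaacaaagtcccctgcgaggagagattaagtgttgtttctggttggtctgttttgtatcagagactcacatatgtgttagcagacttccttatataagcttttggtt
Cyp2c68, chr19:39741102-39741251, minus strand: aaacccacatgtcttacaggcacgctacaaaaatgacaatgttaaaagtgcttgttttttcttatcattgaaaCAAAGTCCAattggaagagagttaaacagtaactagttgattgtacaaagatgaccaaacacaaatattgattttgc

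The letters were searched on both strands in windows from 250 bases before to 50 after each RefSeq start, and they were chosen after these windows had been read. Letters of CDX (TTTATNG), HNF1 and the glucocorticoid receptor were searched as well. Of these CDX was found, 232 bases before the start of Cyp2c55 (opposite strand) and 113 before that of Selenbp1, and in 10.9% of all windows. The HNF1 and glucocorticoid receptor letters were in none of the windows of the 7 genes and in 3 of all windows each. The CAAAGTCCA letters began 116 bases before the start of Cyp2c65 and 77 before that of Cyp2c68, and on the opposite strand 4 bases after the start of Hsd3b3. They were in 156 of all 32851 windows of that length, or 0.475%, and not in those of Cyp2c55, Cyp2c66, Hao2 and Selenbp1. Counted from the first letter of CAAAGTCCA, the nearest sequence of Cyp2c66 differed by A9C and that of Cyp2c55 by A3G. The 300-base windows of Cyp2c65 and Cyp2c66 were 77.8% identical, against 51.4% to 56.0% for Cyp2c65 with Cyp2c68 and with Cyp2c55. Members of different families came to similar values, such as 51.3% for Cyp2c65 with Hao2 and 55.4% for Cyp2c55 with Hsd3b3. A match is a description of these letters and not a site of binding.

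Hsd3b3 (ENSMUSG00000062410, chr3:98741523-98763127, minus strand) and Hao2 (ENSMUSG00000027870, chr3:98874521-98893239, minus strand) also share a neighbourhood, a run of 7 genes that holds 6 Hsd3b genes and ends with Hao2. Selenbp1 (ENSMUSG00000068874, chr3:94933056-94944758, plus strand) lies elsewhere on chromosome 3, between Psmb4 and Rfx5.

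Near-identical relatives limit what the counts of some members can show. Stretches of 90 bases were compared only among genes of the Cyp2c, Hsd3b, Hao and Selenbp families. None in the longest coding transcript of Cyp2c55 or Hao2 occurred in another gene of these families. Such shared stretches made up 8.86% of Cyp2c65, all with Cyp2c66, and 17.1% of Hsd3b3, with Hsd3b2 and Hsd3b6. In Selenbp1 the share was 25.9%, with Selenbp2, and in Cyp2c68 it was 22.4%, with Cyp2c40, Cyp2c67 and Cyp2c69. This 3′ method reads near transcript ends, and whether intronic reads were counted as well is not given. The last 500 bases of the Cyp2c68 transcript were 98.6% identical to those of Cyp2c40. UMIs of Cyp2c68 are therefore uncertain between these genes to the extent that reads fell in shared sequence.

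Most of the Cyp2c run had few or no UMIs in this epithelium. In epithelial-like nuclei Cyp2c55 had 2343 UMIs in WT and 4537 in KO, Cyp2c68 had 882 and 2351, and Cyp2c65 had 76 and 186. Cyp2c66 had 0 UMIs in WT, where 3 UMIs would be 0.297 CPM, and 4 in KO, 3 of them in cluster 1 and 1 in cluster 0. Of the 11 Cyp2c genes that are not members, Cyp2c67 led with 39 and 82 UMIs, Cyp2c69 had 12 and 13, and Cyp2c40 and Cyp2c23 had at most 10 in either library. Among the Hsd3b genes Hsd3b3 had 1302 and 3922 UMIs and Hsd3b2 had 389 and 898, while Hsd3b4, Hsd3b5 and Hsd3b6 had 0 in both libraries. Selenbp2 had 20 and 83 UMIs beside 957 and 3346 for Selenbp1. These are counts within this assay and were not scaled for the length of the genes. Over the last 500 bases, Hsd3b6 was 93.3% identical to Hsd3b3 and Selenbp2 95.5% to Selenbp1. Low counts of these 2 relatives, and of Cyp2c40, Cyp2c67 and Cyp2c69, are uncertain to the extent that reads fell in shared sequence.

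**Figure D1:**
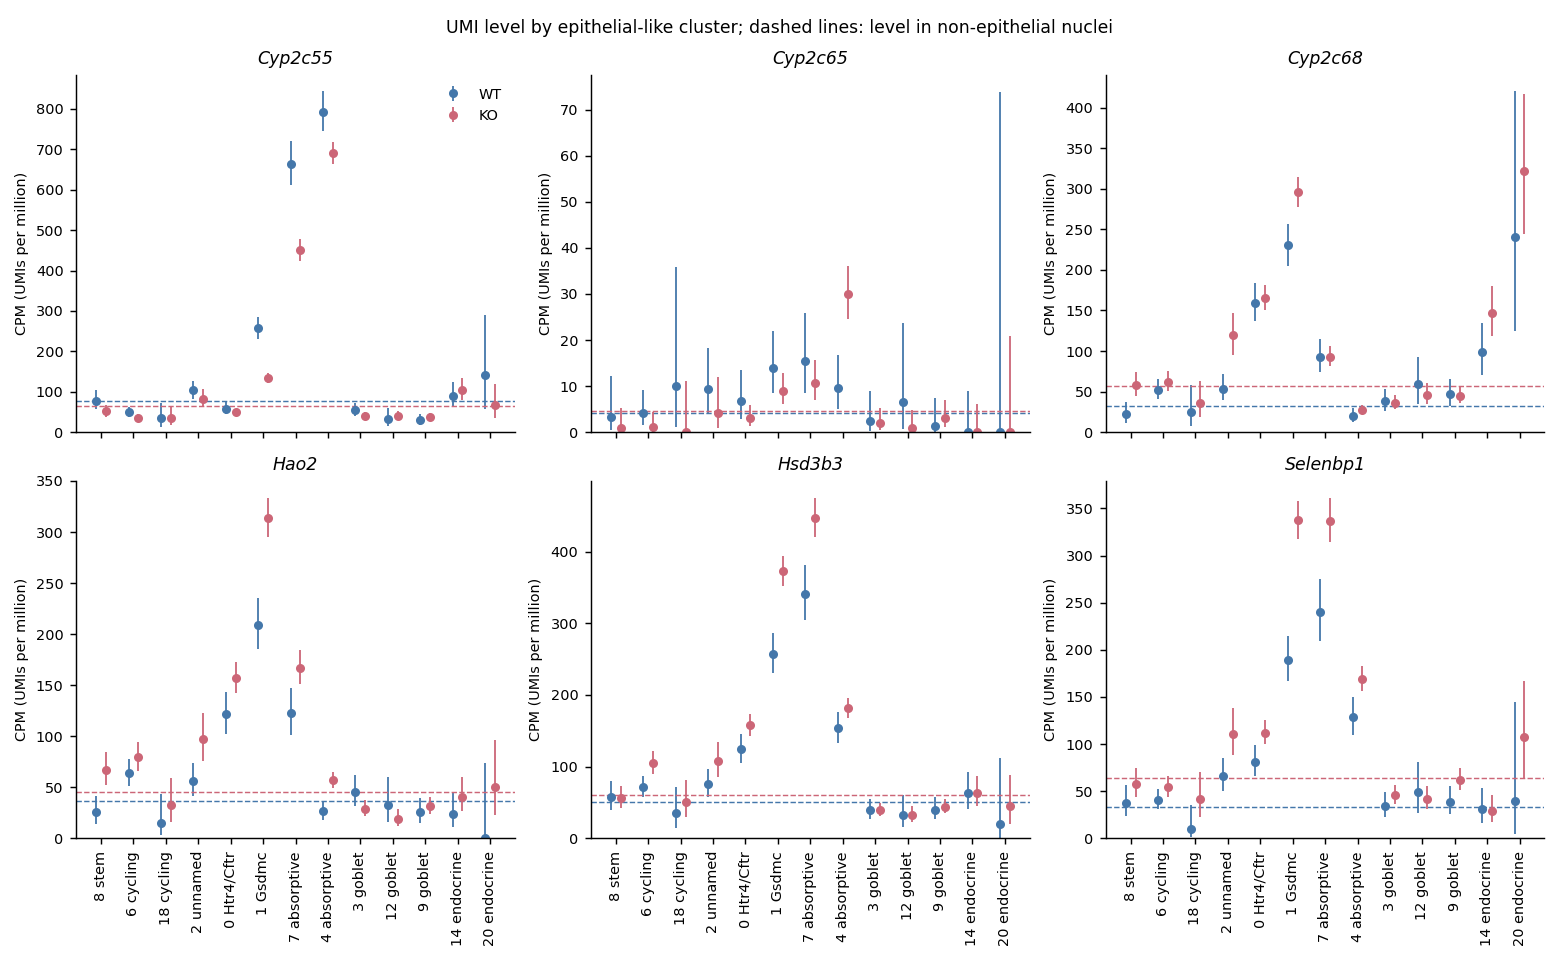
Level in CPM of each gene with over 4 UMIs in the 13 epithelial-like clusters, WT in blue and KO in red. Bars are exact 95% Poisson intervals, dashed lines are the levels in non-epithelial nuclei, and each panel has its own linear scale. Cyp2c55 peaks in cluster 4 at 792 and 691 CPM. Cyp2c68 is highest in clusters 20 and 1, whose intervals overlap, and Hao2 peaks in cluster 1. Cyp2c68 and Hao2 lie near or below their dashed lines in cluster 4 of WT, and Hsd3b3 and Selenbp1 lie in between.

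Cyp2c55 was highest in the absorptive colonocyte-like clusters. Its level in cluster 4 was 792 CPM (744 to 843) in WT and 691 (664 to 719) in KO, the highest of the 13 clusters in both libraries. Cluster 7 followed with 664 (612 to 720) and 451 (424 to 479). Cluster 1 had 257 (230.4 to 285) and 134 (122 to 147), and cluster 0 had 58.1 (45.1 to 73.7) and 49 (40.9 to 58.2), below the 77.3 and 64.4 CPM of non-epithelial nuclei. The order 4, 7, 1 held in both libraries, and the intervals of clusters 4 and 7 and of 7 and 1 did not overlap. Against non-epithelial nuclei the level in cluster 4 was 10.3-fold higher in WT and 10.7-fold in KO.

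Shares of single nuclei were ordered likewise. Thinned to 1000 UMIs each, 36.7% of cluster 4 nuclei had a Cyp2c55 UMI in WT (exact binomial interval 31.0 to 42.7) and 30.5% in KO (26.4 to 34.9). In cluster 7 they were 27.7% (22.1 to 33.9) and 25.4% (21 to 30.3), which overlap those of cluster 4, against 12.3% and 9.91% in cluster 1 and 7.19% and 8.73% in non-epithelial nuclei. Without thinning these shares were 58.9% and 62.3% in cluster 4 (median 4070 and 6103.5 UMIs per nucleus) and 12.9% and 15.9% in non-epithelial nuclei (1838 and 2090). The share in cluster 4 was far above the background in both libraries. At equal depth it was lower in KO, with intervals that overlap. Clusters 4 and 7 together held 68.0% of the Cyp2c55 UMIs of epithelial-like nuclei in WT and 77.4% in KO.

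Cyp2c65, the nearest neighbour of Cyp2c55 on the chromosome, was a sparse gene. It had 12 UMIs in cluster 4 of the WT library, or 9.59 CPM (4.95 to 16.8), and 106 in that of the KO library, or 29.9 (24.5 to 36.1). Cluster 7 had 15.5 (8.45 to 25.9) and 10.6 (6.88 to 15.7), cluster 1 had 14 (8.44 to 21.9) and 9.0 (6.08 to 12.8), and non-epithelial nuclei had 4.19 and 4.57. In WT the clusters 7, 1 and 4 could not be ordered because their intervals overlap, and cluster 4 also overlapped the background. In KO cluster 4 stood clear of the other clusters. No UMI of Cyp2c65 was found in the 2 enteroendocrine-like clusters of either library, which allows 6.46 CPM in WT and 3.79 in KO (3 UMIs each).

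Cyp2c68 had nearly the opposite pattern to Cyp2c55. Its level in cluster 4 was 20.0 CPM (12.9 to 29.5) in WT and 27.1 (21.9 to 33.0) in KO, below the 32.1 and 56.8 CPM of non-epithelial nuclei. Cluster 1 had 230.1 (205 to 257) and 296 (277 to 315), cluster 0 had 159 (137 to 184) and 165 (150.1 to 182), and cluster 7 had 92.7 (73.9 to 115) and 93.2 (81.2 to 106). The gene was thus at its enterocyte maximum in the gasdermin C cluster and within the background where Cyp2c55 was highest. From cluster 4 to cluster 1 the level of Cyp2c68 was 11.5-fold higher in WT and 10.9-fold in KO. Against this, Cyp2c55 was 3.09-fold and 5.15-fold higher in cluster 4 than in cluster 1.

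Enteroendocrine-like nuclei also carried Cyp2c68 above the background. In cluster 20, led by Gcg and Pyy, 13 WT nuclei had 12 UMIs or 240.5 CPM (124 to 420.1) and 31 KO nuclei had 57 UMIs or 322 (244 to 417). In cluster 14, with Tph1 among its leading genes, the level was 99 (71.0 to 134) in WT and 147 (118 to 180.3) in KO. The lower bounds were above the upper bounds of the background, 40.7 CPM in WT and 68.4 in KO, in both clusters and both libraries. Of the other members this held only for Cyp2c55 in cluster 14 of the KO library, with a lower bound of 80.3 CPM beside 76.7. Cyp2c68 made up 35.6% of the UMIs of the 7 genes in enteroendocrine-like nuclei of WT (27.9 to 43.8) and 43.1% in KO (37.8 to 48.5). In non-epithelial nuclei it was 13.7% (10.8 to 17.0) and 19.3% (16.1 to 22.7).

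**Figure D2:**
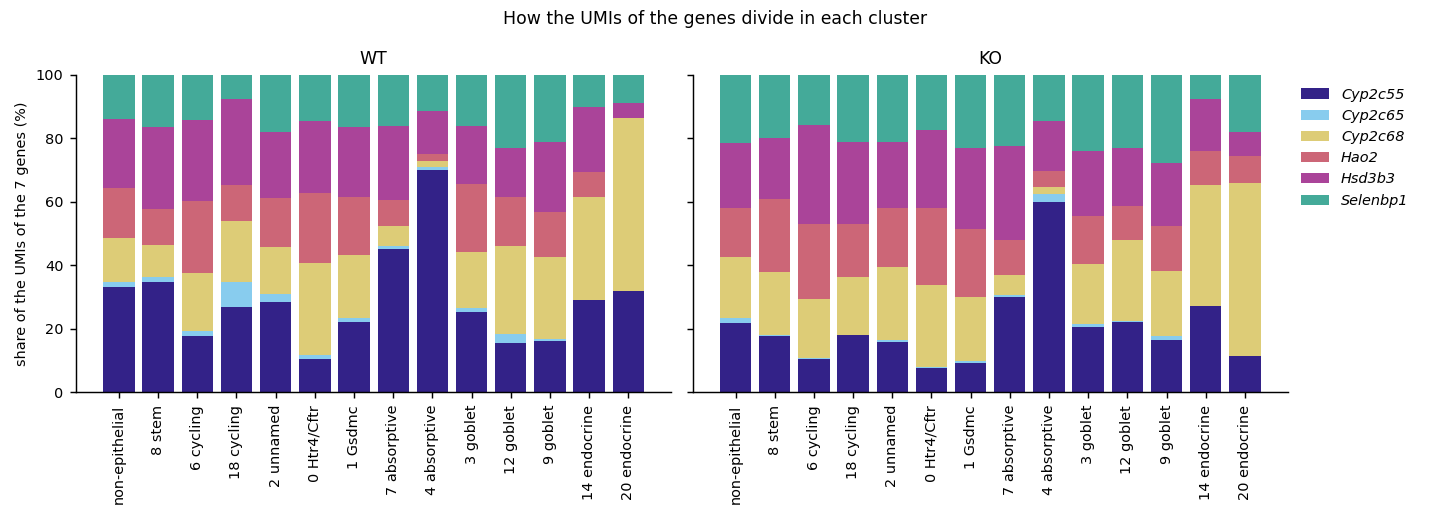
Share in percent of each gene in the UMIs of all 7 genes, in non-epithelial nuclei and the 13 epithelial-like clusters, for WT (left) and KO (right). Cyp2c66, with 4 UMIs, is not drawn. Cyp2c55 takes 70.1% in cluster 4 of WT and 59.8% in KO, and Cyp2c68 takes 54.5% and 54.3% in cluster 20.

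Hao2 followed the gasdermin C cluster. It had 209 CPM (186 to 235) in cluster 1 of the WT library and 314 (295 to 334) in that of the KO library. Cluster 7 had 122 (101 to 148) and 167 (151 to 185), cluster 0 had 121 (102 to 143) and 157 (142 to 173), and cluster 4 had 26.4 (18.1 to 37.0) and 57.0 (49.4 to 65.4) beside a background of 36.8 and 45.2. Cluster 1 stood above all other clusters in both libraries, clusters 7 and 0 did not differ beyond their intervals, and cluster 4 overlapped the background. Thinned to 1000 UMIs, 16.0% and 19.3% of cluster 1 nuclei had a Hao2 UMI against 3.37% and 5.08% of non-epithelial nuclei.

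Hsd3b3 was broader and peaked in cluster 7, at 341 CPM (304 to 381) in WT and 447 (421 to 475) in KO. Cluster 1 came next with 257 (231 to 286) and 373 (352 to 394), then cluster 4 with 153 (132 to 177) and 182 (168 to 196) and cluster 0 with 124 (105 to 146) and 158 (143 to 174). The background was 50.8 and 59.9. Clusters 7, 1 and 4 were separate from each other in both libraries, and clusters 4 and 0 overlapped. All 4 clusters lay above non-epithelial nuclei.

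Selenbp1 had its highest levels in clusters 7 and 1, which overlapped. Cluster 7 had 241 CPM (209.7 to 275) in WT and 337 (314 to 361) in KO, and cluster 1 had 189.5 (167 to 214) and 337 (318 to 358). Cluster 4 had 129 (110 to 150.1) and 169 (156 to 183) and cluster 0 had 81.2 (65.7 to 99.3) and 112 (99.6 to 126). The background was 33.1 in WT and 64.0 in KO. Here too all 4 enterocyte clusters were above the background, and the background itself was higher in KO.

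Set class against class, gasdermin C over absorptive colonocyte-like, the members split into 3 kinds. On the log2 scale Cyp2c55 was lower in the gasdermin C class, at -1.53 (-1.70 to -1.36) in WT and -2.15 (-2.29 to -2.01) in KO. Cyp2c68 was higher, at 2.19 (1.87 to 2.52) and 2.47 (2.28 to 2.66), as was Hao2 at 1.65 (1.36 to 1.95) and 1.64 (1.49 to 1.79). Hsd3b3, at 0.15 (-0.05 to 0.35) and 0.38 (0.27 to 0.48), and Selenbp1, at 0.11 (-0.12 to 0.34) and 0.52 (0.40 to 0.63), were about level in WT and somewhat higher in KO.

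Across the 13 epithelial-like clusters in both libraries, 26 points that share libraries and depth, Pearson correlations of log2(CPM + 10) set Hao2 nearer to Hsd3b3 and Selenbp1 than to Cyp2c68. They were 0.88 between Hsd3b3 and Selenbp1, 0.84 between Hao2 and Hsd3b3 and 0.76 between Hao2 and Selenbp1, against 0.44 between Hao2 and Cyp2c68. Cyp2c55 had 0.69 with Cyp2c65, 0.70 with Hsd3b3, 0.69 with Selenbp1, 0.28 with Hao2 and 0.08 with Cyp2c68. Cyp2c55 was thus closer in pattern to the adjacent Cyp2c65 than to Cyp2c68 in the same run, but no closer than to Hsd3b3 and Selenbp1 on chromosome 3. These points carry the counting error of the sparse Cyp2c65.

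Among 10022 genes with at least 200 UMIs in epithelial-like nuclei, those most like each member were named by the same measure. For Cyp2c55 they were the plasma membrane calcium pump Atp2b1 (0.94), the phosphate carrier Slc20a1 (0.93) and Mall (0.91), and Slc20a1 is also one of the absorptive markers. For Hao2 they were Gsdmc2 (0.96), Fam234a (0.93) and Gsdmc4 (0.92), of which the gasdermins are the markers that named cluster 1. For Hsd3b3 they were the protease Pcsk5 (0.97), the cytokine Il34 (0.96) and Ahcyl2 (0.96), and for Selenbp1 the reductase Dhrs11 (0.91), the sulfur dioxygenase Ethe1 (0.90) and D430001F17Rik (0.90). Cyp2c65 was most like Gda (0.85), Mgat4a (0.84) and Pptc7 (0.81), and Cyp2c68 most like Pias2 (0.85), Immp2l (0.83) and Rnf130 (0.83). The values of Cyp2c65 and Cyp2c68 were lower than those of Cyp2c55, Hao2, Hsd3b3 and Selenbp1, and the reason was not tested.

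The second question of the design is how the KO library differed from the WT library in the same classes of nuclei. A gene was counted as higher or lower when it differed by at least 1.5-fold in CPM, with 0.5 UMI added. Only genes whose UMIs in the class came to 50 or more over both libraries were considered. With 1 pooled library per genotype these are differences between 2 libraries. Earlier results for these genes in the same libraries were known when they were chosen.

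Cyp2c55 was lower in KO in each of the 3 enterocyte clusters where it stood above background. The log2 ratio of KO over WT was -0.20 (exact conditional interval -0.31 to -0.09) in cluster 4, -0.56 (-0.70 to -0.41) in cluster 7 and -0.94 (-1.14 to -0.73) in cluster 1. Among these 3 clusters the difference was thus smallest in cluster 4, where the gene was highest. In all nuclei together the levels were 201 and 199 CPM with a log2 ratio of -0.01 (-0.08 to 0.06), with 513 of 4884 WT nuclei and 826 of 4702 KO nuclei in clusters 4 and 7.

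Clustered more finely, at a resolution of 2, 5 finer clusters came mainly from clusters 1, 4 and 7, and they are ordered here by the level of Car4. The finer cluster with the most Car4 had 698 CPM of Cyp2c55 in WT and 731 in KO, from 66 and 131 nuclei. The next had 841 and 672, then 597 and 500, then 551 and 228, and the one with the least Car4 had 177 and 104. KO was lower in 4 of these 5 finer clusters, and not in the one with the most Car4.

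The other members had ratios above 0 in absorptive colonocyte-like nuclei, Cyp2c68 within counting error. In this class, clusters 4 and 7 together, Hao2 had 66.7 CPM in WT and 101 in KO, a log2 ratio of 0.60 (0.33 to 0.87), and Cyp2c65 had 12 and 22.2, a log2 ratio of 0.88 (0.27 to 1.55). These were the 2 members past 1.5-fold among the 6 with enough UMIs, both higher, beside 9.85% of all 9200 genes higher and 15.2% lower. Cyp2c55 was at -0.31 (-0.40 to -0.23), Hsd3b3 at 0.31 (0.16 to 0.45), Selenbp1 at 0.43 (0.26 to 0.59) and Cyp2c68 at 0.08 (-0.24 to 0.41). The median of the 6 members was 0.37 and that of all genes -0.08.

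The 2 members past the limit had few UMIs in part of the class. Thinned to 1000 UMIs per nucleus, Hao2 came to 0.47 and was no longer past it. Its ratio was 1.11 (0.58 to 1.69) in cluster 4, where it was at or near background, and 0.45 (0.14 to 0.77) in cluster 7. Cyp2c65 had 1.64 (0.78 to 2.64) in cluster 4 and -0.54 (-1.54 to 0.52) in cluster 7, where its interval covers 0. The ratio of Cyp2c68 went from -0.55 with thinning to 0.99 with nuclei assigned singly by their marker scores, and so has no settled direction here.

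In gasdermin C enterocyte-like nuclei, Selenbp1 was higher in KO, with 189.5 and 337 CPM and a log2 ratio of 0.83 (0.64 to 1.03), and Cyp2c55 was lower. They were the 2 members past 1.5-fold among 5 with enough UMIs, beside 10.8% of all 8219 genes higher and 8.12% lower. Hao2, at 0.58 (0.39 to 0.78), was just short of the limit, and Hsd3b3 was at 0.53 (0.36 to 0.71) and Cyp2c68 at 0.36 (0.18 to 0.55). The median of the 5 members was 0.53 and that of all genes 0.05. Selenbp1 came to 0.57 without integration, which ends its call, and Hao2 came to -0.0056 with nuclei assigned singly by their marker scores.

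The call of Cyp2c55 as lower in gasdermin C enterocyte-like nuclei was sensitive to leaving out the deepest nuclei. Without the 5% of nuclei with the most UMIs in each library it was 209 CPM in WT and 143 in KO, a log2 ratio of -0.54 that no longer passed 1.5-fold. With no integration of the libraries it was 479 and 163, and the ratio was -1.55. With each nucleus weighted equally Cyp2c55 was 222 CPM in WT and 138 in KO, and with thinning 193 and 119. Both were still past 1.5-fold. WT was higher under every setting tried.

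**Figure D3:**
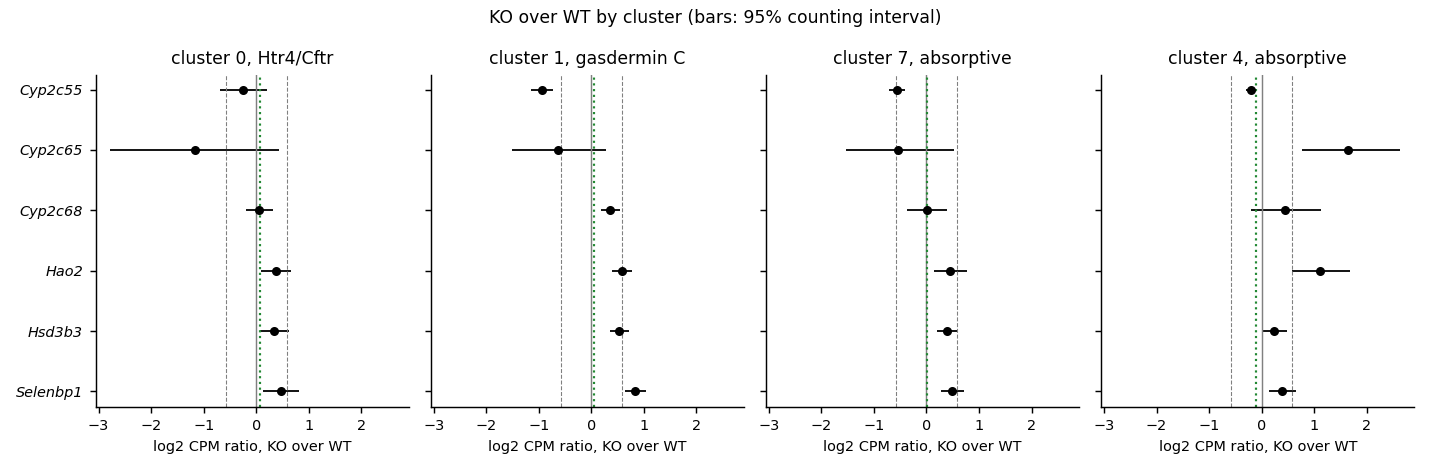
Log2 ratio of CPM, KO over WT, for 6 genes in clusters 0, 1, 7 and 4, with exact conditional 95% intervals for counting error. The solid line is 0, dashed lines are 1.5-fold in either direction and the dotted green line is the median of all genes tested in that cluster. Cyp2c55 lies left of 0 in all 4 clusters, with an interval that covers 0 in cluster 0, and Hao2, Hsd3b3 and Selenbp1 lie right of 0 in all 4.

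In cluster 0 Hao2, Hsd3b3 and Selenbp1 were also higher in KO, Selenbp1 by no more than in non-epithelial nuclei. The log2 ratios were 0.37 (0.09 to 0.66) for Hao2, 0.35 (0.07 to 0.63) for Hsd3b3, 0.46 (0.13 to 0.81) for Selenbp1 and 0.06 (-0.20 to 0.31) for Cyp2c68. None of the 5 members with enough UMIs passed 1.5-fold there, where 12.9% of 7950 genes were higher and 7.87% lower. Hao2, Hsd3b3 and Selenbp1 had intervals above 0 in each of clusters 0, 1, 4 and 7.

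Other values moved with these differences. The summed level of the 11 absorptive markers was higher in KO by 0.34 in cluster 4, 0.46 in cluster 7, 0.51 in cluster 1 and 0.66 in cluster 0 on the log2 scale. All 11 had UMIs in each of the 4 clusters in both libraries. The summed level ranged over these clusters from 1415 to 10874 CPM in WT and from 2241 to 13729 in KO. The summed level of the 6 crypt enterocyte markers was lower in KO by 0.26 in clusters 4 and 1. It was lower by 0.41 in cluster 7 and by 0.07 in cluster 0. These 6 markers did not move together. Cftr was lower in KO in all 4 clusters. Htr4 was higher in clusters 4 (133 and 147 CPM), 1 (641 and 767) and 0 (1331 and 1735), and lower in cluster 7 (192 and 166). In non-epithelial nuclei the absorptive sum was higher in KO by 0.79 (1383 and 2393 CPM), more than in any of the 4 clusters. Of the 11 absorptive markers 3 passed 1.5-fold in cluster 4, all higher, and Slc20a1 was lower there (741 and 658 CPM), as Cyp2c55 was, but not in cluster 7 (475 and 508). Whether a shift of the nuclei along the crypt within a cluster takes part in these ratios was not tested.

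The summed level of the 10 goblet markers, which enterocytes should lack, was also higher in KO in these clusters, by 0.39 to 0.69. All 10 were detected in both libraries, with sums of 899 to 1268 CPM in WT and 1449 to 1924 in KO. In non-epithelial nuclei this list was higher by 0.78. In non-epithelial nuclei Selenbp1 was higher in KO by 0.95 (0.52 to 1.39) and Cyp2c68 by 0.82 (0.38 to 1.28), while Cyp2c55, Hao2 and Hsd3b3 had intervals that cover 0. With the level of non-epithelial nuclei subtracted in each library, the ratio of Selenbp1 in the gasdermin C class was 0.80 and that of Cyp2c55 was -1.36. In the absorptive class the subtraction left Selenbp1 at 143 CPM in WT and 172 in KO, a log2 ratio of 0.27. The subtraction was not run for cluster 0, where Selenbp1 had 81.2 and 112 CPM. Its difference there did not exceed that in non-epithelial nuclei, so a rise above the background is not shown for that cluster. In enteroendocrine-like nuclei Cyp2c68 was higher in KO by 0.70 (0.24 to 1.18), which did not exceed its difference in non-epithelial nuclei.

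The proteins that serve or regulate these enzymes were taken as whole lists. Counts from every list stand beside the shares of all genes past 1.5-fold. These were 9.85% higher and 15.2% lower in the absorptive class, and 10.8% and 8.12% in the gasdermin C class. Por, the electron donor of the Cyp2c enzymes, differed by no more than counting error, with 152 and 142 CPM in absorptive colonocyte-like nuclei (log2 ratio -0.09, -0.28 to 0.10) and 95.9 and 102 in gasdermin C enterocyte-like nuclei (0.09, -0.20 to 0.40). Cyb5b had -0.07 and 0.10 in the same classes. Of the 22 genes of electron transfer and xenobiotic oxidation, 15 had enough UMIs in the absorptive class, where Fmo5 and Ces2c were higher and Ephx2 lower. In the gasdermin C class 11 did, and Cyp2s1, Cyp3a13 and Fmo5 were higher and 0 lower. The fatty acid hydroxylase Cyp4f40 was lower in KO in both, by 0.44 and 0.51, short of the limit and in the direction of Cyp2c55.

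**Figure D4:**
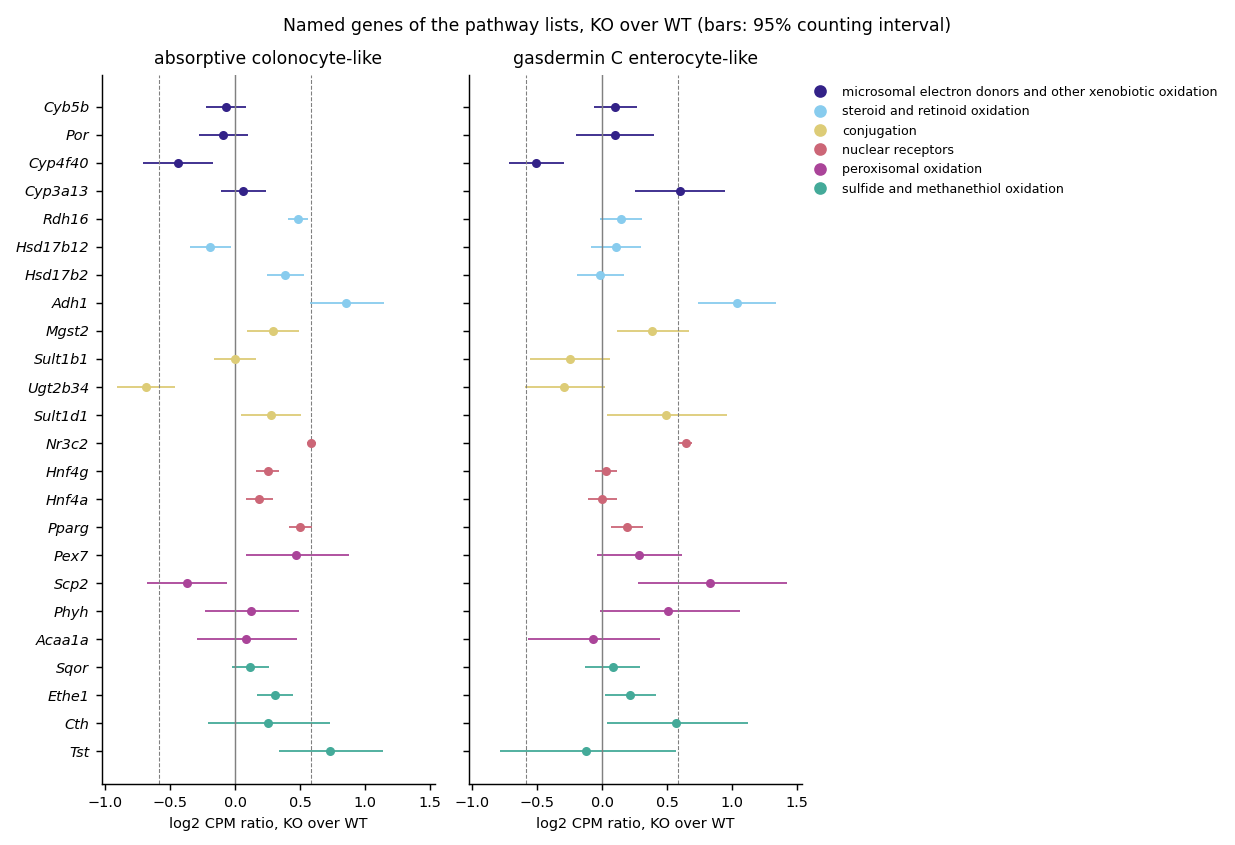
Log2 ratio of CPM, KO over WT, for the 4 genes with the most UMIs of each of 6 pathway lists, in absorptive colonocyte-like (left) and gasdermin C enterocyte-like nuclei (right). Bars are exact conditional 95% intervals for counting error, dashed lines are 1.5-fold, and colours are lists. Adh1 and Nr3c2 lie right of 1.5-fold in both panels, Hnf4a and Hnf4g lie near 0 in the right panel, and Cyp4f40 and Ugt2b34 lie left of 0 in both.

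Among 26 further genes of steroid and retinoid oxidation, Adh1, an alcohol dehydrogenase that also oxidizes retinol, was higher in KO in both classes. It had 58.4 and 106 CPM in the absorptive class (0.86, 0.58 to 1.14) and 82.6 and 169 in the gasdermin C class (1.03, 0.74 to 1.34). In the absorptive class 14 had enough UMIs, of which 1 was higher and 4 (Hsd17b4, Hsd17b7, Srd5a1 and Cyp7b1) lower. In the gasdermin C class 11 did, of which 2 (Srd5a2 and Adh1) were higher and 0 lower. The medians were -0.07 and 0.14, close to those of all genes. Hsd17b2, which inactivates estradiol, had 244 and 319 CPM in the absorptive class (0.39, 0.25 to 0.53) and 256 and 253 in the gasdermin C class (-0.02, -0.20 to 0.17), and Rdh16 had 0.48 (0.40 to 0.56) and 0.14 (-0.02 to 0.31).

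Of the 16 nuclear receptors, 15 had enough UMIs in each class. Nr3c2, the mineralocorticoid receptor, was higher in KO in both, with 4266 and 6405 CPM in the absorptive class (0.59, 0.55 to 0.62) and 2919 and 4551 in the gasdermin C class (0.64, 0.59 to 0.69). Vdr was the other one past 1.5-fold in both, and Ppara was lower in the absorptive class. Hnf4a was at 0.19 (0.08 to 0.29) and 0.00 (-0.11 to 0.12), and Hnf4g at 0.25 (0.16 to 0.34) and 0.03 (-0.06 to 0.11). The fatty acid receptor Pparg was at 0.50 (0.41 to 0.59) and 0.19 (0.07 to 0.31).

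Genes of peroxisomal oxidation, where Hao2 belongs, had a median log2 ratio of 0.38 in the gasdermin C class, over 12 genes with enough UMIs. In the absorptive class it was -0.05 over 13. The medians of all genes in these classes were 0.05 and -0.08. Crot and Scp2 were higher and 0 lower in the gasdermin C class. In the absorptive class 0 were higher while Cat and Pex5 were lower. Scp2, a thiolase and lipid carrier, had 24.3 and 43.2 CPM in the gasdermin C class (0.83, 0.27 to 1.42) and 61.6 and 47.7 in the absorptive class (-0.37, -0.67 to -0.06). Pex7, an import receptor of peroxisomes, was at 0.28 (-0.04 to 0.61) and 0.47 (0.08 to 0.87) in the same order.

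Genes of sulfide oxidation act beside Selenbp1 in the handling of bacterial sulfur gases. Sqor had 258 and 280.1 CPM in the absorptive class and 187 and 198 in the gasdermin C class, with log2 ratios of 0.12 (-0.02 to 0.26) and 0.08 (-0.13 to 0.29). Ethe1 was at 0.31 (0.17 to 0.45) and 0.21 (0.02 to 0.41). Tst was past 1.5-fold in the absorptive class at 0.73 (0.33 to 1.14), 1 of the 5 genes tested, and 0 of 4 were past it in the gasdermin C class. For conjugation, 7 and 9 of 19 genes had enough UMIs. Sult1a1 and Sult2b1 were higher and Mgst1 lower in both classes, Ugt2b34 was lower in the absorptive class (-0.68, -0.91 to -0.46) and Ugt1a6a was higher in the gasdermin C class.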

How the data were processed

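Single-nucleus RNA sequencing (10x Chromium Single Cell 3′ v3.1) gave 1 library per genotype. The authors ran Cell Ranger 7.0.1 on mm10 and deposited counts of UMIs per gene and barcode, without normalization or a quality filter, 13492810 in WT and 25489277 in KO over 4896 and 4772 barcodes. Whether intronic reads were counted is not given in the sources used here.

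Nuclei with 400 to 5000 genes and at most 10% mitochondrial UMIs were kept, as in the study's methods. Clusters were made in R 4.3.3 with Seurat 5.3.0 (2000 variable features without the 7 genes, CCA integration, 30 principal components, resolution 1, seed 1). A cluster was named for the class whose markers had the largest mean log2 ratio there (10 CPM added), if 3 or more markers reached a log2 ratio of 1 and 10% of its nuclei and no other class had more markers in its top 10 genes. The limits of this rule followed a look at the data. They left 4 clusters unnamed, of which clusters 0 and 2 counted as epithelial-like. No doublet caller was applied beyond the limit of 5000 genes, and leaving out the deepest nuclei was tried instead.

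UMIs were summed per class and library in Python 3.11.15 (numpy 2.4.6, pandas 2.3.3, scipy 1.17.1). The call at 1.5-fold and the intervals were run on simulated Poisson counts, with planted changes larger than that limit. This setting has no spread between nuclei, animals or libraries, so it checks the computation only. Shares were also computed after thinning to 1000 UMIs. The text names the 7 genes, the 4 genes of each pathway list with the most UMIs in epithelial-like nuclei, and the 3 genes most like each member. Other list genes past 1.5-fold, and single genes such as Selenbp2, were named after their values were seen. The 7 genes, marker lists and pathway lists were chosen with earlier results of these data known. edgeR 4.0.16 and DESeq2 1.42.0 gave other scalings. Positions are from GENCODE M21, promoter windows from RefSeq (7 of 7 genes matched). One gene of the peroxisomal list is not reported here and was left out of that list's counts.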

Additional observations from a re-analysis of the deposited data

Results flagged for a closer look

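Cluster 5 was left unnamed, and its nuclei enter no comparison but that of Cyp2c55 in all nuclei together. It held 646 WT and 80 KO nuclei of low depth (median 1409 and 2405 UMIs), was led by AY036118, Gpx2, Vip and Igkc, and passed 0 of 6 markers of its nearest class. Members stood above their level in non-epithelial nuclei there. In WT this held for Cyp2c55 (157 CPM, 133 to 184), Cyp2c68 (54.4), Hao2 (73.3), Hsd3b3 (113) and Selenbp1 (74.3), and in KO for Cyp2c55 (153, 105 to 217) and Hao2 (163, 113 to 228). The KO values come from 32 and 34 UMIs. With 1 library per genotype no group held enough samples to look for a library far from its group.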

How the results depend on the processing

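No paired analysis was possible because each genotype had 1 library. With 1 pool per genotype the intervals leave out the spread between animals, sparse members (Cyp2c65, Cyp2c66) are limited by depth, and where a value moved the cause was not tested. In all, 115 of 174 recomputed values stayed within the counting interval of the reported value or, for counts of genes, within 1.5 times the reported count. This held for every KO over WT ratio under TMM factors (edgeR) and DESeq2 size factors, which shift all ratios by 0.07 in the absorptive class and by -0.05 in the gasdermin C class. At resolution 0.5 no cluster took the gasdermin C name.

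The log2 ratio of KO over WT in the absorptive class moved for Cyp2c55 to -0.40 with all barcodes, -0.22 with equal weight for each nucleus, -0.20 at resolution 0.5, -0.21 at resolution 2 and -0.17 with thinning. Resolution 0.5 also gave 1.64 for Cyp2c65, 0.44 for Cyp2c68 and 1.11 for Hao2. Cyp2c68 came to 0.79 without integration, 0.99 by marker score and -0.55 with thinning. Hao2 came to 1.32 without integration and 0.90 with the non-epithelial level subtracted.

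In the gasdermin C class Cyp2c55 moved to -1.55 without integration, -1.36 with the subtraction, -0.69 with equal weight, -0.69 with thinning and -0.54 without the deepest 5% of nuclei. No integration also gave 0.55 for Cyp2c68, 0.29 for Hsd3b3 and 0.57 for Selenbp1. Marker scores gave 0.076 for Cyp2c68 and reversed Hao2 to -0.0056, over 120 WT and 320 KO nuclei in place of 374 and 545. Thinning gave 0.36 for Hao2 and 1.09 for Selenbp1.

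The log2 level in the gasdermin C over the absorptive class kept its direction wherever it was recomputed, which leaves out Cyp2c65 in WT. That sparse gene had 14 CPM in the gasdermin C and 12 in the absorptive class, but 2.12 and 11.6 by marker score. Cyp2c55 in WT was -0.94 at resolution 2, -0.79 without integration, -1.07 by marker score and -1.88 with the subtraction, and in KO -1.86 at resolution 2, -1.83 by marker score and -2.93 with the subtraction. Cyp2c68 in WT was 3.11 without integration, 2.99 by marker score and 3.43 with the subtraction, and in KO 2.71 at resolution 2, 2.88 without integration and 2.07 by marker score. Hao2 in WT was 2.63, 2.28 and 2.53 without integration, by marker score and with the subtraction, and in KO 1.92, 1.41 and 2.27. Without integration Hsd3b3 was 0.86 in WT and 0.70 in KO, and Selenbp1 0.56 and 0.68. Selenbp1 in KO was 0.65 at resolution 2 and 0.67 with the subtraction, and Cyp2c65 in KO -1.99 with the subtraction.

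With no minimum beyond 1 UMI, 3249 genes were higher and 5557 lower in KO in the absorptive class, and 3252 and 4050 in the gasdermin C class. With at least 200 UMIs these were 419 and 399, and 314 and 142.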
